A study of Mus musculus with 15 samples.

Results

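The unfolded protein response and secretory pathway genes described here are 40 genes chosen by name that sense or relieve protein load in the endoplasmic reticulum (ER) or move new proteins into it. All 40 have a value among the 21110 genes of the table. They comprise 6 sensors and transcription factors, 11 chaperones and cochaperones, 6 genes of disulfide formation, 7 genes of ER-associated degradation and 10 genes of the translocon and signal peptidase. Levels were measured by RNA sequencing in 15 libraries of basophils, eosinophils and natural helper cells (NH cells, the lung's group 2 innate lymphoid cells) sorted from the lungs of C57BL6/J mice. Naive mice received nothing, and papain mice received 50 ug of papain, an allergenic protease from papaya, into the nose on each of 3 days. Naive basophils, papain basophils, naive eosinophils, naive NH cells and papain NH cells have 2 libraries each. Papain eosinophils were split at the sorter by surface CD11c into a CD11c-negative and a CD11c-positive group of 2 libraries each, and naive eosinophils were not split in the labels. A single library holds papain NH cells labelled 3'UTRKO, whose targeted gene the labels do not name, so the knockout could not be checked. Basophils were taken as FceR1+ CD49b+ c-kit- cells, NH cells as lineage-negative Thy1.2+ IL7Ra+ CD25+ cells, and eosinophils as SiglecF+ Gr1lo cells without autofluorescence. The labels do not say whether replicate libraries came from separate mice, so every p-value below measures only the spread between these libraries, which may be technical.

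Proteins bound for the cell surface or for secretion enter the ER through the Sec61 channel, lose their signal peptide, and fold with the help of chaperones and of enzymes that form disulfide bonds. When unfolded protein builds up, the membrane sensors IRE1 (Ern1), PERK (Eif2ak3) and ATF6 (Atf6) become active. IRE1 splices the Xbp1 transcript, PERK raises translation of Atf4, and the resulting transcription factors are known to induce ER chaperones, degradation genes and, in the ATF4 branch, Ddit3, which encodes CHOP. The program is best known in plasma cells and other heavy secretors, and Xbp1 is known to be required for eosinophil development. The table gives 1 value per gene, so spliced and unspliced Xbp1 were not separated.

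Values are FPKM, fragment counts scaled to transcript length and library size, rounded to whole numbers in the table, and the read depth behind them is unknown. FPKM summed to between 374841 and 570208 per library, with 9995 to 13049 genes above 0. Markers of other cells differed between some groups. In basophils, 9 of 10 basophil markers were called lower after papain and their summed FPKM went from 7049 and 6143 to 734 and 2157, so the defining markers of the label were themselves lower in papain basophils. In the same comparison 7 of 7 fibroblast markers were called higher (sums of 13 and 3 in naive, 928 and 374 in papain), as were 8 of 12 epithelial markers (6647 and 8722, against 20474 and 34637) and 6 of 8 endothelial markers (50 and 29, against 114 and 349). Of 8 neutrophil markers 3 were called higher, with sums of 268 and 537 in naive and 3221 and 7535 in papain basophils. Other sums were lower in papain basophils. Mast cell markers summed to 294 and 358 in naive and 153 and 4 in papain libraries, and B cell markers to 201 and 366, against 116 and 35. Papain basophil replicate 1 also held summed alveolar macrophage markers of 11304 FPKM, against 165 in replicate 2 and 46 and 40 in naive libraries, with 2 of 8 called higher, and summed monocyte and macrophage markers of 4627 FPKM, against 645 and, in naive, 633 and 109. In eosinophils the summed fibroblast markers were 1 and 5 in naive, 451 and 274 in CD11c-negative and 687 and 617 in CD11c-positive libraries. Summed plasma cell markers were 35 and 50 FPKM in naive and 130 and 22 FPKM in papain basophils, with Igj at 14 and 38, then 88 and 3 FPKM. In the same order Sdc1 was at 2 and 3, then 29 and 14 FPKM, and Irf4 at 16 and 7, then 10 and 3 FPKM. Prdm1 and Tnfrsf17 did not exceed 3 FPKM in basophils. In eosinophils the plasma cell sums were 6 and 11 in naive, 103 and 36 in CD11c-negative and 43 and 42 in CD11c-positive libraries. Igj was at 2 and 1, 88 and 20, and 25 and 32 FPKM in the same order. The part of plasma cell RNA in the member differences was not tested. In the NH comparison none of 7 fibroblast markers was called (328 and 213 in naive, 335 and 360 in papain). In bulk libraries a change in the mix of cells and a change of RNA level per cell cannot be told apart, and this holds for every comparison below.

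Across all 15 libraries the highest mean level per transcript length was that of Hspa5, which encodes the chaperone BiP (289 FPKM). Atf4 (173 FPKM), Hsp90b1 (153 FPKM), Calr (127 FPKM) and Pdia3 (117 FPKM) came next. The lowest means were those of Derl3 (0.4 FPKM), Ero1lb (4.8 FPKM) and Atf6 (6.6 FPKM). Derl3, a derlin of ER-associated degradation, was listed at 0 in 11 of 15 libraries and never exceeded 2 FPKM. The median of the 40 members within a library was 23.5 and 15.5 FPKM in naive basophils, 18.5 and 25 FPKM in naive eosinophils and 23 and 25 FPKM in naive NH cells. It was 58.5 and 35 FPKM in papain basophils, 29 and 29.5 FPKM in CD11c-negative and 39.5 and 32 FPKM in CD11c-positive papain eosinophils, and 36.5 and 42.5 FPKM in papain NH cells. The member median of every papain library thus lay above both naive libraries of its cell type. The median of all tested genes was also higher in basophils, at 3 and 2 FPKM in naive and 5 and 5 FPKM in papain libraries. In eosinophils it was 2 and 3 FPKM in naive, 4 and 4 FPKM in CD11c-negative and 5 and 4 FPKM in CD11c-positive libraries. In NH cells it overlapped, at 5 and 3 FPKM in naive and 4 and 5 FPKM in papain libraries. The 3'UTRKO library had a member median of 27 FPKM, below both other papain NH libraries.

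**Figure D1:**
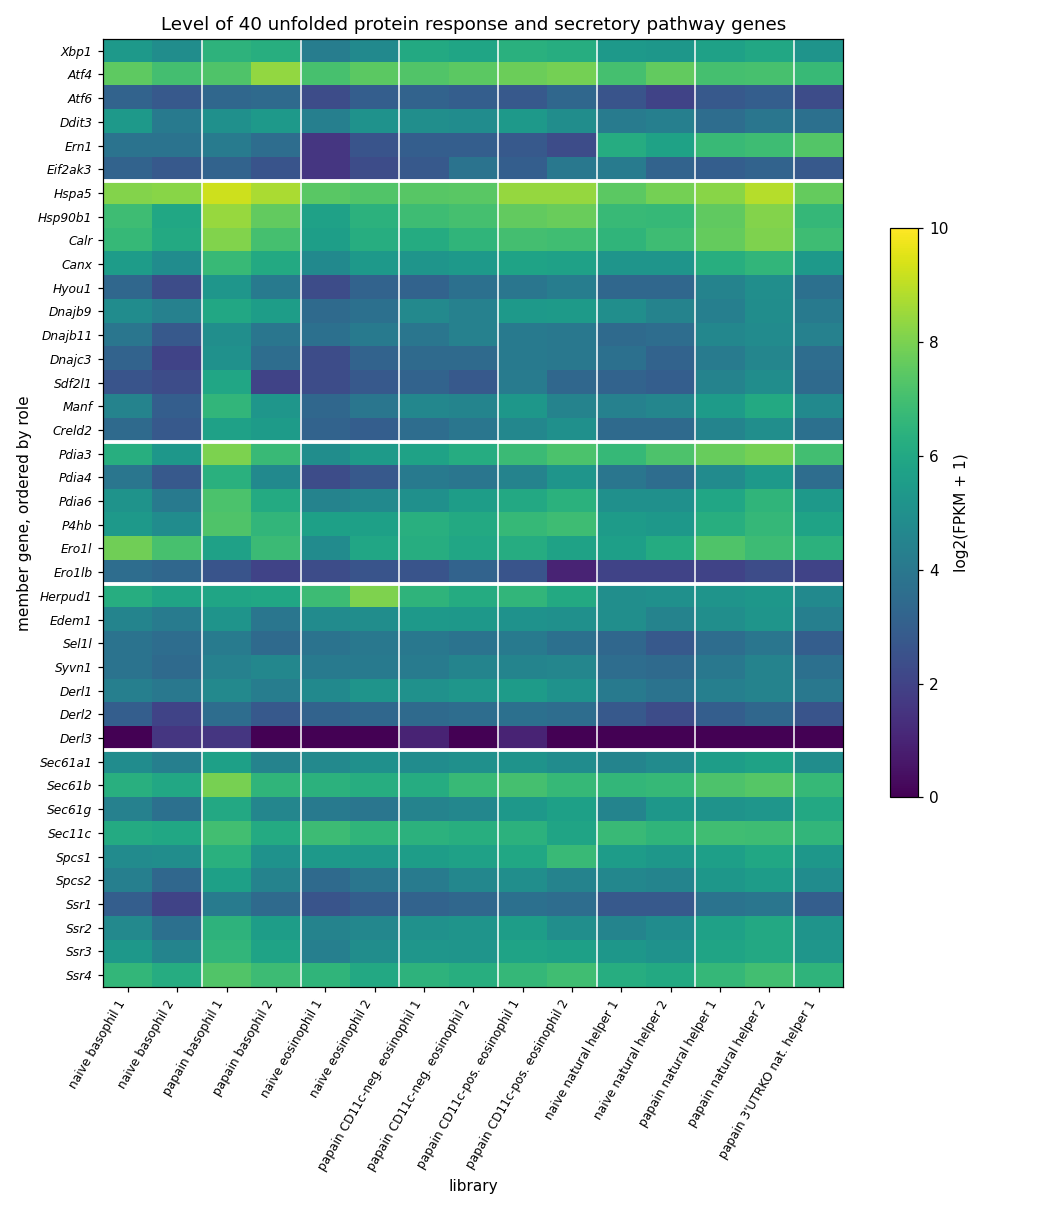
Heat map of log2(FPKM + 1) for the 40 members (vertical axis, grouped by role, white lines between roles) in the 15 libraries (horizontal axis, white lines between groups). Hspa5 and Atf4 are bright in every library, Derl3 is at or near 0 throughout, and Ern1 is brighter in the 5 NH libraries than in the other 10.

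Promoter sequence is shown because ATF6 and XBP1 are known to act through the ER stress response element, ERSE, and because members that hold it can be compared with those that do not. Promoter windows of 250 bases before to 50 bases after the transcription start were taken from RefSeq (GRCm38.p6, a later build than the mm9 named for the expression values), and 33 of the 40 members had one. On both strands an ERSE was searched as CCAAT, any 9 bases and CCACG. Such a match stood in the windows of 10 of the 33 members (30.3%) and of 37 of all 27025 genes with a window (0.137%). The members were Hspa5, Hsp90b1, Calr, Canx, Dnajc3, Creld2, Pdia6, Ero1lb, Syvn1 and Derl3. The related ERSE-II, searched as ATTGG, any 1 base and CCACG, stood in 2 members, Dnajb11 and Herpud1 (6.06%, against 0.0444% of all genes). The 8 letters TGATGCAA, bound by ATF4 dimers, stood in Herpud1 alone (3.03% of members, 1.03% of all genes), and TGACGTGG, the XBP1 element called UPRE, stood in no member window (0.714% of all genes). No match of one motif overlapped another. The sites of the 6 ERSE members with the largest basophil differences are printed 5′ to 3′ along the strand that reads CCAAT first, with 5 flanking bases on each side and the CCAAT and CCACG parts in capitals.
Creld2: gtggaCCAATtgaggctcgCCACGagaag
Pdia6: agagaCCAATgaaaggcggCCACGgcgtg
Dnajc3: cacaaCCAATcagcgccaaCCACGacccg
Hsp90b1 near site: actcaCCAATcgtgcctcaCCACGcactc
Hsp90b1 far site: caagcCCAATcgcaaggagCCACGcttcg
Canx: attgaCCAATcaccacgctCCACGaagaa
Calr: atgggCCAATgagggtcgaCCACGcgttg
The Creld2 site lies at chr15:88819520-88819538 and reads on the strand opposite to the gene, which is on the plus strand. Pdia6 (chr12:17266491-17266509) and Dnajc3 (chr14:118937827-118937845) are plus-strand genes whose sites read along the gene. Hsp90b1, on the minus strand, has its near site at chr10:86705533-86705551 on the opposite strand and its far site at chr10:86705638-86705656 along the gene. Canx (chr11:50325800-50325818) and Calr (chr8:84847075-84847093) are minus-strand genes whose sites read along the gene and on the opposite strand, respectively. Every printed site lies upstream of the start. A match of letters is a description of the window, and binding was not measured.

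The first comparison asks what papain exposure did to these genes in basophils. ER chaperones and disulfide isomerases rose in papain basophils, with Creld2, Pdia4, Manf and Pdia6 the most changed members, while the ER stress sensors and most degradation genes did not pass the test. Differences are of group means of log2(FPKM + 1), papain minus naive, with ± 1 standard error; a value of 1 is a factor of 2 in FPKM + 1, which understates changes of genes near 0. A gene was called when its Benjamini-Hochberg adjusted p over the 14257 genes tested in limma was under 0.05. In basophils 18 of 40 members were called higher and none lower, and 22.1% of all tested genes were called higher and 3.88% lower. At an unadjusted p under 0.05 limma placed 23 members higher and 2 lower, against 32% and 6.11% of all genes. The median difference of the 40 members was 1.09, against 0.50 for all genes. The libraries did not overlap, papain above naive, for 24 members, which holds for 37.5% of all genes. Called members numbered 1 of 6 sensors and transcription factors, 9 of 11 chaperones, 4 of 6 disulfide genes, 1 of 7 degradation genes and 3 of 10 translocon and signal peptidase genes.

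Among the transcription factors, Xbp1 stood at 42 and 29 FPKM in naive and 88 and 77 FPKM in papain basophils. Both papain libraries were above both naive ones, and Xbp1 rose by 1.21 ± 0.23 (adjusted p = 0.0068, limma). Atf4 had 184 and 129 FPKM in naive and 152 and 328 FPKM in papain libraries, and Ddit3 had 42 and 16 FPKM in naive and 31 and 41 FPKM in papain libraries. These 2 genes overlapped between the groups, and neither was called (0.53 ± 0.35, adjusted p = 0.309, and 0.44 ± 0.42, adjusted p = 0.479, limma), although Atf4 was called higher when papain basophil replicate 1 was left out. The 3 sensor genes were low and close to their naive values, with Ern1 at 13 and 13 FPKM in naive and 17 and 11 FPKM in papain, Eif2ak3 at 8 and 6 against 8 and 5 FPKM, and Atf6 at 8 and 6 against 9 and 10 FPKM.

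Creld2, an ER-resident folding factor, had the largest member difference in basophils. It was at 10 and 6 FPKM in naive and 52 and 44 FPKM in papain libraries. The groups were far apart relative to their spread, and Creld2 rose by 2.48 ± 0.26 (adjusted p = 5.72e-04, limma). Manf, an ER protein released under stress, went from 21 and 7 FPKM to 96 and 37 FPKM (2.19 ± 0.56, adjusted p = 0.0228, limma). Hyou1, a nucleotide exchange factor of BiP, went from 9 and 4 FPKM to 37 and 16 FPKM (1.85 ± 0.48, adjusted p = 0.0233, limma). In both genes papain replicate 1 was higher than replicate 2, and the naive and papain libraries of Manf and Hyou1 did not overlap. Dnajc3, a BiP cochaperone, went from 8 and 3 FPKM to 32 and 11 FPKM (1.73 ± 0.53, adjusted p = 0.0422, limma). Hsp90b1, the ER form of HSP90, went from 119 and 61 FPKM to 348 and 192 FPKM (1.59 ± 0.39, adjusted p = 0.0191, limma). For both of these papain replicate 1 again held the higher value, and no naive library reached a papain one.

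Hspa5, the BiP gene, was at 280 and 301 FPKM in naive and 599 and 425 FPKM in papain basophils. Its rise of 0.80 ± 0.25 (adjusted p = 0.0471, limma) and that of the lectin chaperone Calr, from 103 and 67 to 276 and 132 FPKM (1.19 ± 0.38, adjusted p = 0.0483, limma), lay just inside the threshold. The membrane lectin Canx (45 and 28, then 106 and 66 FPKM) and the cochaperone Dnajb9 (28 and 20, then 63 and 47 FPKM) were also called. Of the 2 chaperones not called, Dnajb11 was at 14 and 6 FPKM in naive and 30 and 14 FPKM in papain libraries. Sdf2l1, a partner of ER cochaperones, was at 5 and 4 FPKM in naive and at 59 and 3 FPKM in papain libraries. The papain replicates of Sdf2l1 stood on either side of the naive range, and its difference of 1.5 ± 0.98 was not called (adjusted p = 0.30, limma).

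The disulfide genes split into isomerases and oxidases. Pdia4 went from 14 and 6 to 81 and 26 FPKM (2.20 ± 0.55, adjusted p = 0.0201, limma), and Pdia6 from 34 and 16 to 141 and 69 FPKM (2.03 ± 0.43, adjusted p = 0.0112, limma). P4hb, the gene of protein disulfide isomerase, went from 42 and 28 to 149 and 96 FPKM (1.77 ± 0.26, adjusted p = 0.0023, limma), and Pdia3 from 76 and 38 to 263 and 108 FPKM (1.63 ± 0.46, adjusted p = 0.0308, limma). All 4 isomerases thus rose, with no overlap of libraries. Ero1l, the oxidase that recharges them, was at 229 and 134 FPKM in naive and 52 and 112 FPKM in papain basophils, and its paralog Ero1lb at 11 and 9 against 5 and 3 FPKM. Both papain libraries of each oxidase were below both naive ones, and neither oxidase was called on the unscaled values; both were called lower under median-ratio scaling and under quantile normalization.

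Of the degradation genes, the ubiquitin ligase Syvn1 was called higher in basophils, at 13 and 10 FPKM in naive and 20 and 24 FPKM in papain libraries. Its adaptor Sel1l (13 and 11, against 17 and 10 FPKM), the lectin Edem1 (22 and 17, against 35 and 14 FPKM) and Derl1 (19 and 15, against 25 and 18 FPKM) were not. Herpud1, a membrane protein of the same ligase complex, was at 75 and 56 FPKM in naive and 58 and 61 FPKM in papain basophils (-0.12 ± 0.35, adjusted p = 0.863, limma). Of the TRAP complex at the translocon, 3 subunits were called. Ssr2 went from 25 and 12 to 87 and 47 FPKM (1.82 ± 0.39, adjusted p = 0.0113, limma), Ssr1 from 7 and 3 to 17 and 10 FPKM, and Ssr3 from 39 and 22 to 95 and 55 FPKM. The fourth subunit, Ssr4, was at 97 and 73 FPKM in naive and 155 and 115 FPKM in papain libraries and was not called (0.66 ± 0.24, adjusted p = 0.0785, limma). Sec61b, a subunit of the channel, was at 78 and 63 against 249 and 92 FPKM (1.10 ± 0.40, adjusted p = 0.0737, limma), and the signal peptidase genes Sec11c, Spcs1 and Spcs2 were not called either.

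The basophil count depended on single libraries, on scaling and on the groups fitted together. Without naive basophil replicate 2 it was 2 members, without papain basophil replicate 1 it was 5, without naive basophil replicate 1 it was 20 and without papain basophil replicate 2 it was 25. A fit of the 2 basophil groups alone called 0 members, Creld2 and P4hb included. Creld2 and P4hb kept their calls with any 1 library left out, the others given with an error lost theirs without naive basophil replicate 2, all of these but Xbp1 also lost theirs without papain basophil replicate 1, and Hspa5 also without naive basophil replicate 1. Members averaged 0.78 higher in papain basophil replicate 1 than in replicate 2 and 0.57 higher in naive replicate 1 than in replicate 2 on the log2(FPKM + 1) scale. Median-ratio scaling left 11 members higher and quantile normalization 9, all among the 18, and the median of all genes moved from 0.50 to 0.16 and -0.08. Relative to that median the members stood 0.59 higher unscaled, 0.45 higher under median-ratio scaling and 0.62 higher under quantile normalization. Of the 14257 genes tested, 3152 were called higher in basophils unscaled, 2229 under median-ratio scaling and 1428 under quantile normalization. Of all genes called in basophils, 85.1% were higher unscaled, 65.5% with median-ratio scaling and 45.4% after quantile normalization. The fibroblast, epithelial, endothelial and neutrophil markers given above were called higher in the same comparison, and papain basophil replicate 1 held the macrophage markers; their part in the member differences was not tested. Among members with an ERSE in the window, 8 of 10 were called higher in basophils (median difference 1.20), as were 7 of the 23 members without one (median 1.07). Under both scalings the ERSE members still called higher were Creld2, Hsp90b1 and Pdia6. Of those without one, P4hb, Pdia4 and Xbp1 were called under both scalings, and Ssr1 and Ssr3 under median-ratio scaling alone. Hspa5, Hsp90b1, Calr, Canx, Dnajc3 and Creld2 are also chaperones, so element and role were not separated. In CD11c-positive eosinophils 4 of 10 and 5 of 23 were called higher (medians 1.06 and 0.85). In CD11c-negative eosinophils 0 of 10 and 1 of 23 were (medians 0.46 and 0.48), and in NH cells 0 of 10 and 0 of 23 (medians 1.04 and 0.66).

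**Figure D2:**
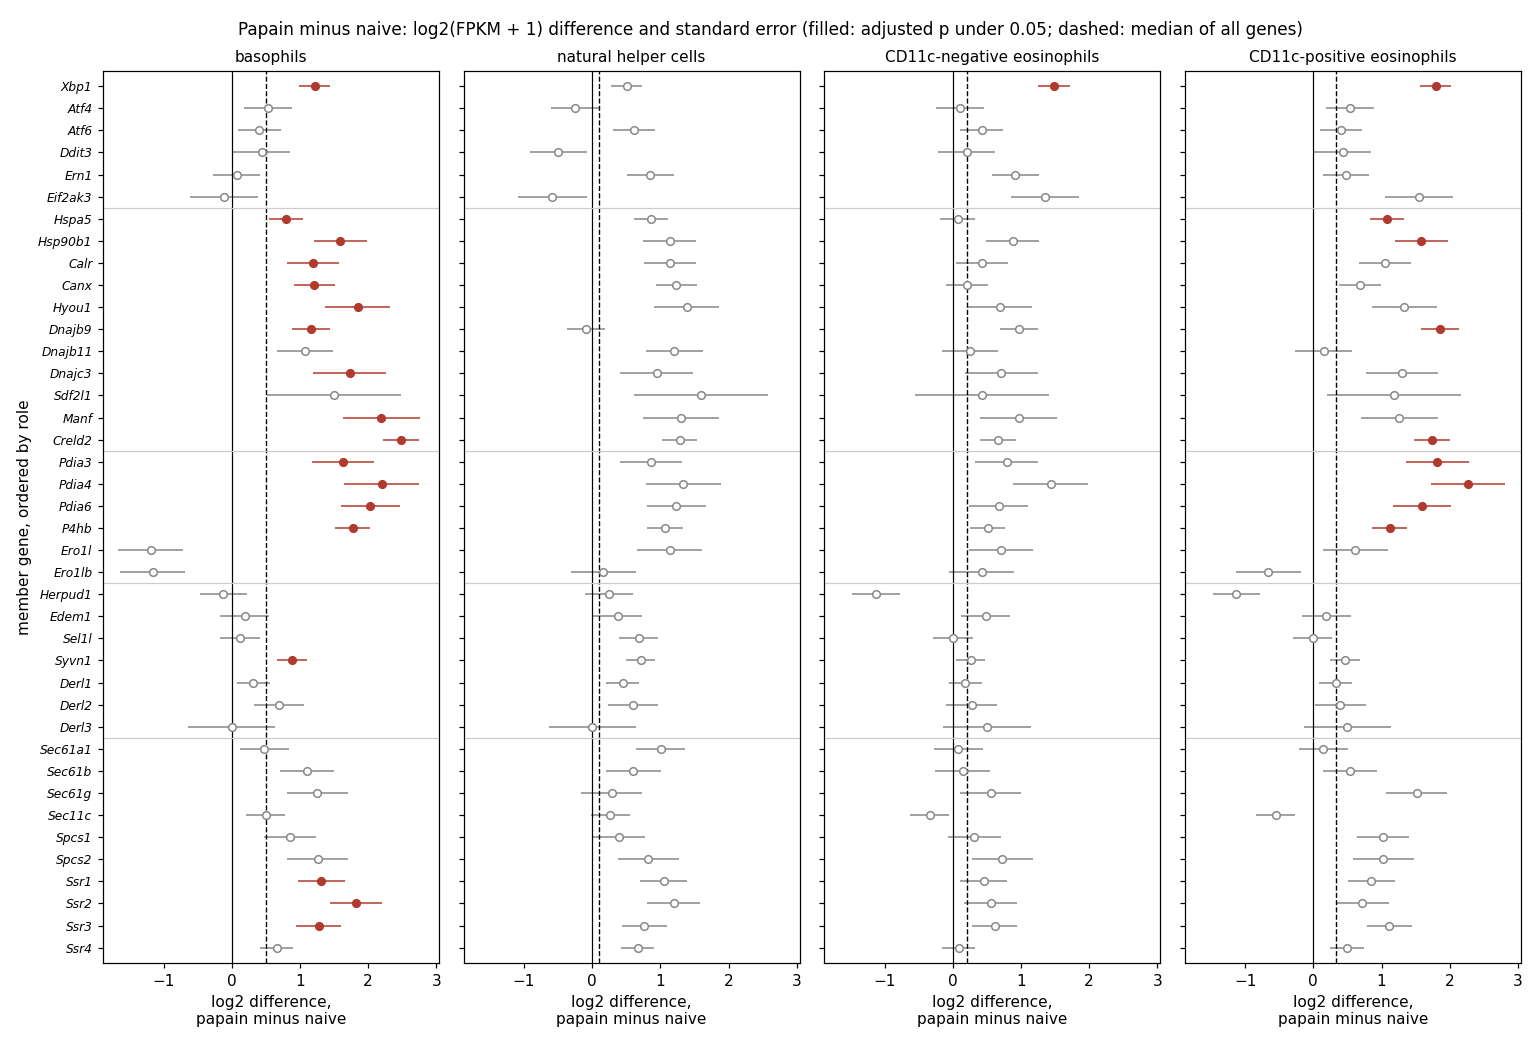
Difference in log2(FPKM + 1) between papain and naive libraries (horizontal axis) for each member (vertical axis, ordered by role) in 4 comparisons, with bars of 1 standard error. Filled red points were called higher by limma (18 in basophils, 0 in NH cells, 1 in CD11c-negative and 9 in CD11c-positive eosinophils), open grey points were not called, and the dashed line is the median of all 14257 genes.

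In NH cells most chaperone, isomerase and translocon genes stood above their naive values in both papain libraries, but no member passed the test. None of 40 members was called higher or lower by limma, and 0.54% of all genes were called higher and 0.245% lower. At an unadjusted p under 0.05, 20 members were higher and 0 lower, against 8.75% of all genes higher and 2.13% lower. A fit of the naive and papain NH groups alone called Dnajb11 and Ssr1 higher. Papain libraries were both above both naive libraries for 32 of 40 members, against 26.1% of all genes. The median difference of the members was 0.79, against 0.09 for all genes and 0.31 for the genes averaging at least 10 FPKM. By role the medians were 1.20 for chaperones, 1.10 for disulfide genes, 0.71 for translocon and signal peptidase genes, 0.44 for degradation genes and 0.13 for sensors and transcription factors. Under median-ratio scaling and under quantile normalization the member median was 0.50, with all genes at 0.00, and 31 and 33 members had a positive difference. Of the calls over all genes 68.8% were higher unscaled, 38.5% under median-ratio scaling and 53.6% under quantile normalization.

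Creld2 came closest to the threshold in NH cells, with 10 and 10 FPKM in naive and 22 and 30 FPKM in papain libraries (1.28 ± 0.26, adjusted p = 0.0792, limma). Hspa5 was at 176 and 238 FPKM in naive and 297 and 470 FPKM in papain libraries (0.87 ± 0.25, adjusted p = 0.217, limma). Hsp90b1 was at 106 and 104 against 190 and 283 FPKM (1.14 ± 0.39, adjusted p = 0.299, limma). In these 3 chaperones both papain libraries were above both naive ones. Calr (92 and 119, against 200 and 270 FPKM; 1.14 ± 0.38, adjusted p = 0.281, limma) and Sdf2l1 (8 and 7, against 21 and 29 FPKM; 1.60 ± 0.98, adjusted p = 0.64, limma) had the same order of libraries. The isomerases Pdia4 (14 and 11, against 27 and 40 FPKM), Pdia6 (31 and 31, against 59 and 93 FPKM), P4hb (44 and 39, against 77 and 100 FPKM) and Pdia3 (102 and 145, against 205 and 241 FPKM) did not overlap between groups either. Ero1l, which was lower in papain than in naive basophils, was at 49 and 71 FPKM in naive and 149 and 115 FPKM in papain NH cells.

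The transcription factors of the response stood closer to their naive values in NH cells. Xbp1 was at 42 and 38 FPKM in naive and 52 and 63 FPKM in papain libraries (0.51 ± 0.23, adjusted p = 0.466, limma). Atf4 was at 131 and 194 against 133 and 135 FPKM (-0.25 ± 0.35, adjusted p = 0.913, limma), and Ddit3 at 17 and 19 against 11 and 14 FPKM (-0.50 ± 0.42, adjusted p = 0.766, limma). Xbp1 did not overlap between groups, Atf4 did, and Ddit3 was the single member whose papain libraries were both below both naive ones. Ern1, the IRE1 gene, was at 73 and 53 FPKM in naive and 108 and 118 FPKM in papain NH cells. Translocon subunits such as Sec61b (98 and 104, against 146 and 162 FPKM; 0.60 ± 0.40, adjusted p = 0.685, limma) and Ssr4 (74 and 66, against 100 and 124 FPKM; 0.66 ± 0.24, adjusted p = 0.336, limma) were above naive in both papain libraries, while Herpud1 was at 30 and 31 against 35 and 38 FPKM (0.25 ± 0.35, adjusted p = 0.909, limma). None of the 8 alveolar macrophage markers was called in NH cells, with sums of 108 and 52 FPKM in naive and 168 and 948 FPKM in papain libraries, and their part in the member values was not tested. None of the plasma cell markers was called in NH cells. Their sum was 12 and 13 FPKM in naive and 83 and 95 FPKM in papain libraries, of which Irf4 made up 65 and 73 FPKM in papain. Sdc1 was at 3 and 3 FPKM in naive and 14 and 16 FPKM in papain libraries, and Prdm1 at 4 and 3 against 4 and 4 FPKM. In papain libraries Igj (0 and 2 FPKM) and Tnfrsf17 (0 and 0 FPKM) were at or next to 0. The part of plasma cell RNA in the NH member values was not tested.

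Papain eosinophils were compared with naive eosinophils in each CD11c gate, and because both comparisons use the same naive libraries their values are only set side by side. Xbp1 was the single member called in both gates; in the CD11c-positive gate 4 chaperones and all 4 disulfide isomerases rose as well. Of 40 members, 1 was called higher and 0 lower in CD11c-negative cells, where 1.87% of all genes were called higher and 0.372% lower. At an unadjusted p under 0.05 limma placed 6 members higher and 1 lower there, against 11.4% and 3.04% of all genes. In CD11c-positive cells 9 members were called higher and 0 lower, against 9.93% of all genes higher and 2.2% lower. There limma placed 18 members higher and 1 lower at an unadjusted p under 0.05, against 22.8% and 5.98% of all genes. The median member difference was 0.47 in CD11c-negative cells (all genes 0.21) and 0.78 in CD11c-positive cells (all genes 0.34). Both papain libraries were above both naive ones for 21 members in CD11c-negative cells (27.8% of all genes) and 28 members in CD11c-positive cells (34% of all genes).

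Xbp1 was at 18 and 26 FPKM in naive, 67 and 58 FPKM in CD11c-negative and 80 and 75 FPKM in CD11c-positive eosinophils. All 4 papain libraries were above both naive ones, with rises of 1.48 ± 0.23 (adjusted p = 0.013, limma) in CD11c-negative and 1.79 ± 0.23 (adjusted p = 0.00233, limma) in CD11c-positive cells. The CD11c-negative call was lost when naive eosinophil replicate 1 or either CD11c-negative library was left out, which brought its count from 1 member to 0. Atf4 was at 136 and 176 FPKM in naive, 153 and 180 FPKM in CD11c-negative and 212 and 239 FPKM in CD11c-positive cells, without a call (0.10 ± 0.35, adjusted p = 1, and 0.54 ± 0.35, adjusted p = 0.366, limma). Ddit3 overlapped between all 3 groups, at 19 and 33, 30 and 28, and 40 and 29 FPKM (0.20 ± 0.42, adjusted p = 0.946, and 0.43 ± 0.42, adjusted p = 0.536, limma).

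In the CD11c-positive gate the isomerase Pdia4 had the largest rise, from 4 and 6 FPKM in naive to 21 and 36 FPKM (2.27 ± 0.55, adjusted p = 0.031, limma), with 16 and 14 FPKM in the CD11c-negative gate. Dnajb9, the BiP cochaperone also known as ERdj4, was at 10 and 12 FPKM in naive, 25 and 20 FPKM in CD11c-negative and 42 and 43 FPKM in CD11c-positive cells (CD11c-positive minus naive 1.86 ± 0.28, adjusted p = 0.00475, limma). Creld2 was at 8 and 7, 11 and 14, and 24 and 31 FPKM in the same order (1.74 ± 0.26, adjusted p = 0.00499, limma, for CD11c-positive and 0.66 ± 0.26, adjusted p = 0.286, for CD11c-negative cells). For these 2 genes the 3 groups did not overlap, and the CD11c-positive values were the highest. Hsp90b1 went from 52 and 85 FPKM in naive to 193 and 209 FPKM in CD11c-positive cells (1.58 ± 0.39, adjusted p = 0.0338, limma), with 117 and 130 FPKM in CD11c-negative cells (0.88 ± 0.39, adjusted p = 0.347). Hspa5 was at 171 and 154 FPKM in naive, 166 and 175 FPKM in CD11c-negative and 344 and 343 FPKM in CD11c-positive cells. The naive and CD11c-negative values of Hspa5 overlapped (0.07 ± 0.25, adjusted p = 1, limma), and the CD11c-positive libraries were above both groups (1.08 ± 0.25 from naive, adjusted p = 0.0281, limma).

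Pdia3 (29 and 43 FPKM in naive, 113 and 143 FPKM in CD11c-positive; 1.82 ± 0.46, adjusted p = 0.036, limma), Pdia6 (21 and 26, then 64 and 82 FPKM; 1.59 ± 0.43, adjusted p = 0.0448, limma) and P4hb (50 and 50, then 103 and 117 FPKM; 1.12 ± 0.26, adjusted p = 0.027, limma) completed the called isomerases. No degradation, translocon or signal peptidase gene was called in either gate, at 0 of 7 and 0 of 10 members, although with a minimum of 5 FPKM Sec61g and Ssr3 were called higher in CD11c-positive cells. Calr was at 48 and 75 FPKM in naive, 71 and 92 FPKM in CD11c-negative and 128 and 122 FPKM in CD11c-positive cells (0.42 ± 0.38, adjusted p = 0.714, and 1.05 ± 0.38, adjusted p = 0.105, limma). Herpud1 was the member with the lowest difference in both gates, with 116 and 264 FPKM in naive, 89 and 71 FPKM in CD11c-negative and 96 and 66 FPKM in CD11c-positive cells. All 4 papain libraries were below both naive ones, although the naive replicates of Herpud1 differed widely. Its differences of -1.13 ± 0.35 in both gates were not called (adjusted p = 0.171 and 0.0685, limma). In CD11c-positive cells Herpud1 was called lower under both scalings, with a minimum of 5 FPKM and without naive eosinophil replicate 1. Ero1lb, at 4 and 5 FPKM in naive and 5 and 1 FPKM in CD11c-positive cells, was called lower when CD11c-positive replicate 1 was left out.

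The CD11c-positive count of 9 members fell to 3 without either naive eosinophil library or without CD11c-positive replicate 2, and to 5 without CD11c-positive replicate 1. Creld2 and Dnajb9 were called in the CD11c-positive gate under every alternative run, and Xbp1 with any 1 library left out. Pdia4 and P4hb lost their calls without either naive eosinophil library or without CD11c-positive replicate 2, and Pdia3, Pdia6, Hsp90b1 and Hspa5 without any 1 of the 4 libraries. Under median-ratio scaling and quantile normalization 7 and 9 members were called higher in the CD11c-positive gate. Of the 14257 genes tested, 982 and 788 were called higher there, against 1416 unscaled. Of all genes called in the CD11c-positive gate 81.8% were higher unscaled, 56.7% under median-ratio scaling and 51.2% under quantile normalization. In the CD11c-negative gate those shares were 83.4%, 72.9% and 73.5%, with Xbp1 called each time. In CD11c-negative cells 6 of 7 and in CD11c-positive cells 7 of 7 fibroblast markers were called higher, as were 2 and 4 of 12 epithelial markers. In CD11c-positive cells 4 of 11 monocyte and macrophage markers were also called higher (sums of 583 and 947 FPKM in naive, 1699 and 1534 FPKM in CD11c-positive), 0 of 8 alveolar macrophage markers (203 and 507, against 1059 and 1284 FPKM) and 1 of 8 neutrophil markers. The part of these markers in the member differences was not tested. All 9 members called in CD11c-positive cells were among the 18 called in basophils, 100% of the first list and 50% of the second, and of all genes 892 were called higher in both (63% of 1416 and 28.3% of 3152). These 2 comparisons share no library, but both came from 1 model with a shared estimate of spread per gene, so they are not independent.

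The gates were also compared directly within papain eosinophils. Between CD11c-positive and CD11c-negative cells no member was called in limma, and 0.0281% of all genes were called in each direction. At an unadjusted p under 0.05, 4 members were higher in CD11c-positive cells and 1 lower, against 6.4% of all genes higher and 2.6% lower. Both CD11c-positive libraries were above both CD11c-negative ones for 20 members, against 20.8% of all genes, and the median member difference was 0.35 (all genes 0.00, genes averaging at least 10 FPKM 0.19). Creld2 (1.08 ± 0.26, adjusted p = 0.40, limma) and Hspa5 (1.01 ± 0.25, adjusted p = 0.405, limma) had 2 of the larger differences. Xbp1 differed by 0.31 ± 0.23 (adjusted p = 0.636, limma), so an Xbp1 difference between the gates was not detectable with these libraries. Without CD11c-positive replicate 1, Ero1lb was called lower in the CD11c-positive gate.

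**Figure D3:**
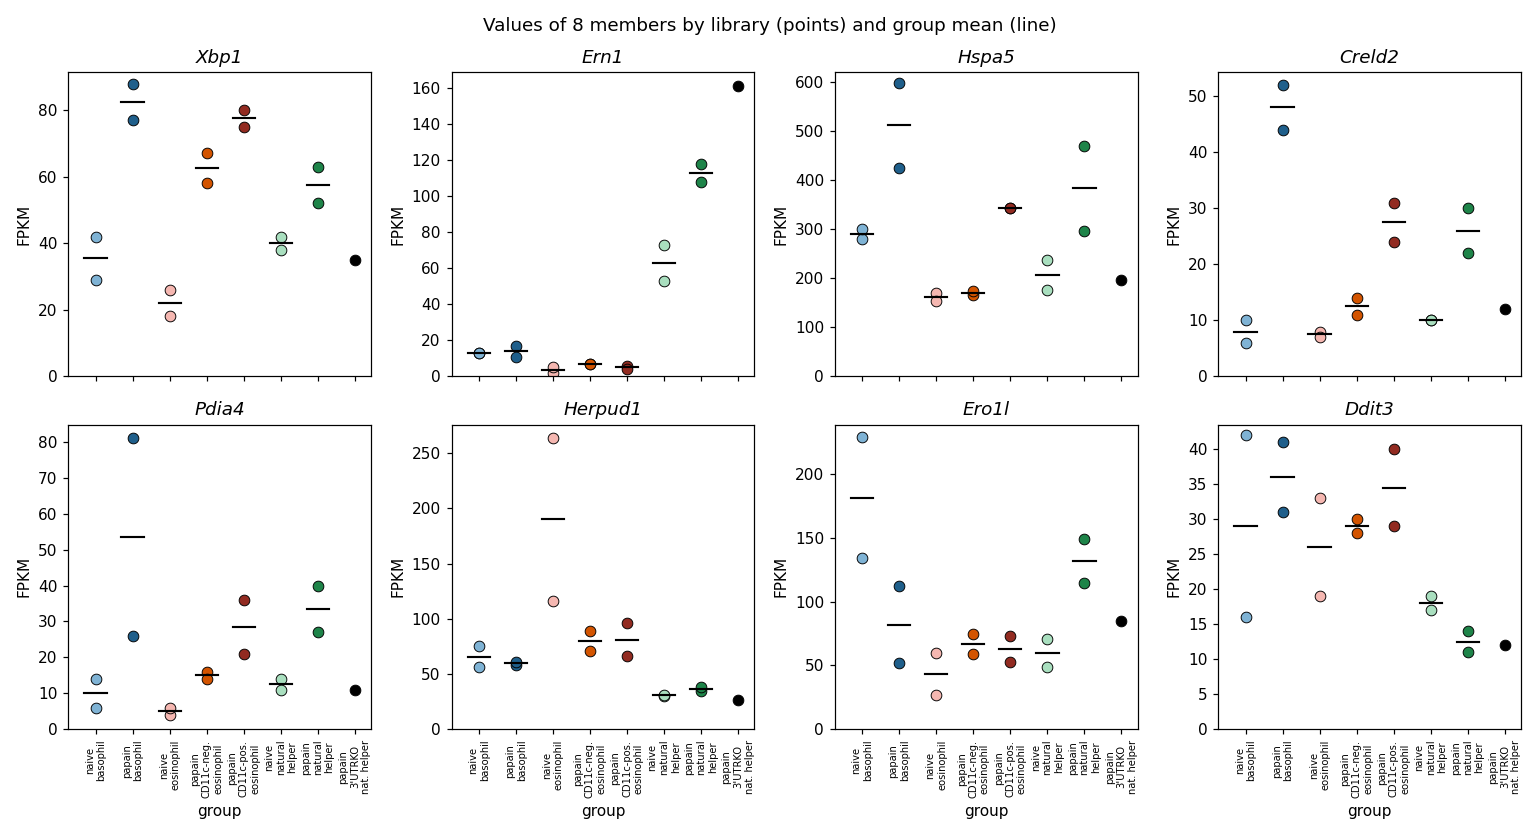
FPKM (vertical axes, from 0) of 8 members in each library (points) by group (horizontal axes), with the group mean as a line where there are 2 libraries. Papain libraries of Xbp1, Creld2 and Pdia4 other than 3'UTRKO lie above the naive ones of their cell type, Ern1 is highest in NH cells, Herpud1 is highest in naive eosinophils, and the highest group mean of Ero1l is that of naive basophils.

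Whether the papain response differed between cell types was tested as a difference of differences. Creld2 was the single member with a call. Its papain response was larger in basophils than in CD11c-negative eosinophils by 1.82 ± 0.37 (adjusted p = 0.0423, limma), 1 of 40 members higher and 0 lower against 1.61% and 0.751% of all genes. Limma placed 4 members higher and 2 lower in that test at an unadjusted p under 0.05, against 12.4% and 4.31% of all genes. Leaving out any library of the 4 groups other than naive basophil replicate 1 ended the Creld2 call, as did the replicate block, quantile normalization, a minimum of 5 FPKM and a fit of the 4 groups alone. No member's response was called different between basophils and NH cells, where 4.64% of all genes were called higher and 2.12% lower. At an unadjusted p under 0.05 limma placed 2 members higher and 1 lower there, against 16.9% and 6.01% of all genes. Ero1l, below naive in both papain basophil libraries and above naive in both papain NH libraries, was the member lowest in that test, and under both scalings it was called lower. Without naive basophil replicate 1, Creld2 was called higher in the test against NH cells. Sdf2l1, whose papain basophil values were 59 and 3 FPKM, was called lower in that test without papain basophil replicate 1 and higher in the test against CD11c-negative eosinophils without papain basophil replicate 2. Between NH cells and CD11c-negative eosinophils no member was called, against 0.61% and 0.596% of all genes. At an unadjusted p under 0.05 limma placed 2 members higher and 3 lower there, against 5.16% and 5.98% of all genes.

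Naive cells of the 3 types were compared to describe where the members stood before papain. The IRE1 gene Ern1 was at 73 and 53 FPKM in naive NH cells, 13 and 13 FPKM in naive basophils and 2 and 5 FPKM in naive eosinophils. Ern1 was lower in eosinophils than in NH cells by -3.90 ± 0.34 (adjusted p = 7.66e-05, limma), lower in basophils than in NH cells by -2.17 ± 0.34 (adjusted p = 0.00293, limma) and higher in basophils than in eosinophils by 1.72 ± 0.34 (adjusted p = 0.0107, limma). Both differences from NH cells were called under every alternative run, and the third was lost without naive basophil replicate 2 or naive eosinophil replicate 1 and in a fit of the 2 groups alone. The other sensor kinase, Eif2ak3, was at 17 and 8 FPKM in NH cells, 8 and 6 FPKM in basophils and 2 and 4 FPKM in eosinophils, called between eosinophils and NH cells (-1.72 ± 0.50, adjusted p = 0.0323, limma). Xbp1 was at 42 and 38 FPKM in NH cells and 42 and 29 FPKM in basophils, which overlapped, and at 18 and 26 FPKM in eosinophils, below NH cells (-0.85 ± 0.23, adjusted p = 0.0218, limma). The Eif2ak3 call was lost without either eosinophil library or NH replicate 1, and the Xbp1 call without eosinophil replicate 1 or either NH library.

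Herpud1 had the reverse order, with 116 and 264 FPKM in eosinophils, 75 and 56 FPKM in basophils and 30 and 31 FPKM in NH cells. It was higher in eosinophils than in NH cells by 2.48 ± 0.35 (adjusted p = 9.18e-04, limma) and lower in basophils than in eosinophils by -1.42 ± 0.35 (adjusted p = 0.0285, limma), the second without a call when naive basophil replicate 2 or naive eosinophil replicate 2 was left out. Derl1, which threads misfolded proteins out of the ER, was at 26 and 35 FPKM in eosinophils and 16 and 13 FPKM in NH cells (1.02 ± 0.24, adjusted p = 0.0134, limma). Ero1l marked naive basophils, at 229 and 134 FPKM against 27 and 60 FPKM in eosinophils (2.09 ± 0.47, adjusted p = 0.0196, limma) and 49 and 71 FPKM in NH cells (1.55 ± 0.47, adjusted p = 0.0483, limma). The Ero1l call against NH cells was lost without any 1 of the 4 libraries, and that against eosinophils without naive basophil replicate 1 or naive eosinophil replicate 1. Dnajb9 was lower in eosinophils, at 10 and 12 FPKM, than in basophils at 28 and 20 FPKM (1.05 ± 0.28, adjusted p = 0.0382, limma) and in NH cells at 30 and 21 FPKM (-1.13 ± 0.28, adjusted p = 0.0159, limma). Pdia3 was at 29 and 43 FPKM in eosinophils and 102 and 145 FPKM in NH cells (-1.76 ± 0.46, adjusted p = 0.0199, limma). Calls against NH cells were lost without naive eosinophil replicate 1 or naive NH replicate 1 for Dnajb9, without these or naive NH replicate 2 for Pdia3, and without replicate 2 of either group for Derl1, and the Dnajb9 call against basophils was lost without any 1 of its 4 libraries.

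In counts, 3 members were higher and 1 lower in naive basophils than in naive eosinophils, against 5.3% and 8.66% of all genes. Between naive basophils and naive NH cells 1 was higher and 1 lower, against 6.96% and 13.6% of all genes. In naive eosinophils 2 were higher and 5 lower than in NH cells, against 11.6% and 16.5%, and both eosinophil libraries were below both NH libraries for 18 members, against 35% of all genes. The 3 members higher in basophils than in eosinophils became 1 without naive basophil replicate 1 or 2 and 0 without naive eosinophil replicate 1, and the 1 lower became 0 without naive basophil replicate 2 or naive eosinophil replicate 2. The 1 higher than in NH cells became 0 without any of the 4 libraries. The 2 higher in eosinophils than in NH cells became 1 without naive eosinophil replicate 2 or naive NH replicate 2, and the 5 lower became 1 without naive eosinophil replicate 1 or naive NH replicate 1 and 3 without naive NH replicate 2. Of all genes called, 37.9% were higher in basophils than in eosinophils unscaled, 54.5% under median-ratio scaling and 51.3% under quantile normalization, and against NH cells 33.8%, 50.9% and 50.1%. Chaperones such as Hspa5 (280 and 301 FPKM in basophils, 171 and 154 in eosinophils, 176 and 238 in NH cells), Hsp90b1, Calr and Creld2 were not called between naive cell types. Hspa5 was called higher in basophils than in eosinophils under both scalings, with a minimum of 5 FPKM and in a fit of these 2 groups alone, and under quantile normalization Hsp90b1 and Calr were called lower in eosinophils than in NH cells.

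The single 3'UTRKO library was set against the 2 other papain NH libraries, which also enter the NH comparison above. Its test assumes that this lone library would vary like the other groups. No member was called higher or lower in limma, with 0.21% of all genes called higher and 0.358% lower, and at an unadjusted p under 0.05 there were 0 members higher and 5 lower, against 5.84% of all genes lower. The 3'UTRKO value was below both other papain libraries for 35 of 40 members, against 37.7% of all genes, within them for 3 and above them for 2, Ern1 and Sec61g. The median member difference was -0.64, against -0.07 for all genes and -0.28 for the genes averaging at least 10 FPKM. Median-ratio scaling and quantile normalization gave -0.39 and -0.41, with all genes at 0.00 and -0.03, and 37%, 48.1% and 46% of all calls were higher in the 3 treatments of the data.

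By role the median 3'UTRKO difference was -1.01 for chaperones, -0.73 for disulfide genes, -0.57 for translocon and signal peptidase genes, -0.53 for degradation genes and -0.30 for sensors and transcription factors. Hspa5 was at 197 FPKM in the 3'UTRKO library and at 297 and 470 FPKM in the other papain libraries (-0.92 ± 0.31, adjusted p = 0.348, limma). Hsp90b1 was at 99 against 190 and 283 FPKM (-1.22 ± 0.48, adjusted p = 0.468, limma), and Creld2 at 12 against 22 and 30 FPKM (-1.04 ± 0.32, adjusted p = 0.33, limma). The 3'UTRKO values of these chaperones lay near the naive NH range, which was 176 and 238 FPKM for Hspa5, 106 and 104 FPKM for Hsp90b1 and 10 and 10 FPKM for Creld2. Xbp1 was at 35 against 52 and 63 FPKM (-0.69 ± 0.28, adjusted p = 0.487, limma), below both naive values. Calr was at 117 against 200 and 270 FPKM (-0.98 ± 0.47, adjusted p = 0.584, limma) and Pdia4 at 11 against 27 and 40 FPKM. Ern1 stood apart, at 161 FPKM against 108 and 118 FPKM in the other papain libraries and 73 and 53 FPKM in naive NH cells. Of the 32 members with both papain libraries above both naive ones, the 3'UTRKO value was below both papain libraries for 31. It was within or below the naive range for 16 of them and between the naive and papain ranges for 15. The 32 members were picked for high values in the same papain libraries, which by itself favours a lower value in a further library. The matching shares among all genes picked in this way were not computed. Whether a papain rise was lost in the 3'UTRKO library was therefore not tested by these counts. The summed fibroblast markers were 156 FPKM in the 3'UTRKO library against 335 and 360 FPKM, the epithelial markers 4381 FPKM against 728 and 2015 FPKM, the plasma cell markers 41 FPKM against 83 and 95 FPKM, and the alveolar macrophage markers 112 FPKM against 168 and 948 FPKM, and their part in the member values was not tested.

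**Figure D4:**
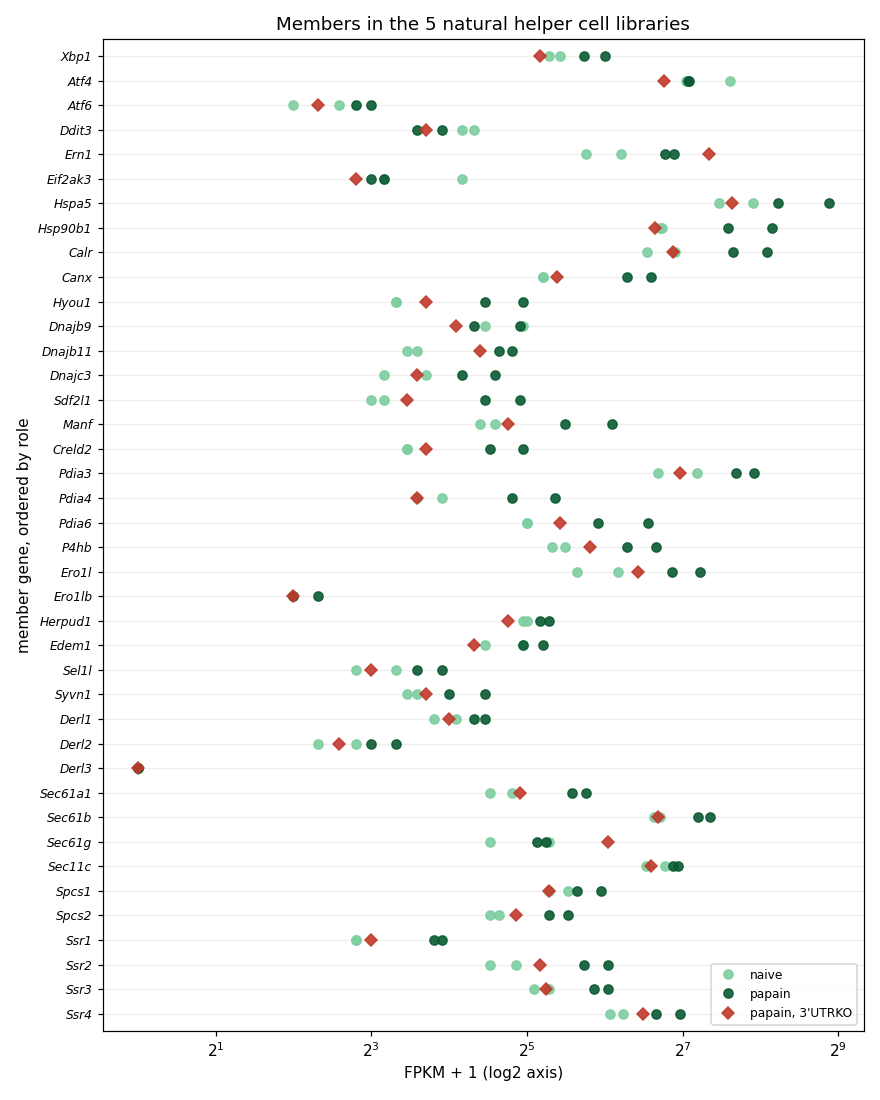
FPKM + 1 on a log2 axis (horizontal) of each member (vertical axis) in the 2 naive (light green), 2 papain (dark green) and 1 papain 3'UTRKO (red diamond) NH cell libraries. Papain points lie to the right of naive points for 32 of 40 members, and the red diamond lies to the left of both papain points for 35.

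Other genes of the same pathways, 145 listed, 141 in the table and 139 tested, gave the setting for these values. In basophils 46 were called higher (33.1%, against 22.1% of all genes) and 3 lower, with a median difference of 0.74. Called higher were 14 of 30 genes of vesicle export and retrieval, 9 of 22 of glycoprotein folding and further oxidoreductases, 4 of 10 oligosaccharyltransferase genes, 5 of 17 genes of the signal recognition particle and further translocation, 6 of 22 ATF4 and CHOP targets, 4 of 20 further degradation genes and 4 of 18 further transducers of ER stress, the last 3 lists being near the share of all genes. Kdelr2, the receptor that returns escaped chaperones to the ER, went from 7 and 5 to 42 and 36 FPKM (2.53 ± 0.30, adjusted p = 9.07e-04, limma), and the cargo receptor subunit Mcfd2 from 5 and 5 to 33 and 36 FPKM (2.56 ± 0.25, adjusted p = 4.53e-04, limma). Rpn1, a subunit of the enzyme that attaches N-glycans, went from 8 and 4 to 44 and 27 FPKM (2.40 ± 0.37, adjusted p = 0.00287, limma). Slc7a11 (7 and 5, then 29 and 42 FPKM) and Atf5 (4 and 4, then 15 and 36 FPKM) were among the 6 of 22 ATF4 and CHOP targets called higher. Asns (4 and 3, then 3 and 13 FPKM), Trib3 (3 and 2, then 1 and 5 FPKM) and Chac1 (5 and 5, then 2 and 18 FPKM) overlapped between the groups. Os9, a lectin of ER-associated degradation, fell from 180 and 196 to 46 and 63 FPKM (-1.78 ± 0.17, adjusted p = 4.53e-04, limma), and the death regulator Bcl2l11 fell from 80 and 72 to 27 and 34 FPKM (-1.30 ± 0.22, adjusted p = 0.00457, limma).

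In NH cells 1 of the 139 was called higher and 0 lower. It was Surf4, an ER export receptor, at 28 and 27 FPKM in naive and 50 and 57 FPKM in papain libraries (0.93 ± 0.14, adjusted p = 0.0229, limma). In CD11c-negative eosinophils 3 were called higher (2.16%, against 1.87% of all genes) and 0 lower, and in CD11c-positive eosinophils 20 higher (14.4%, against 9.93% of all genes) and 0 lower. The isomerase Txndc5 was called in both gates, at 3 and 4 FPKM in naive, 19 and 12 FPKM in CD11c-negative and 20 and 19 FPKM in CD11c-positive cells. Rpn1 (3 and 6, then 19 and 17 FPKM), Mcfd2 (6 and 8, then 27 and 21 FPKM) and Kdelr2 (9 and 12, then 32 and 19 FPKM) were called in CD11c-positive cells as they were in basophils. None of the 139 was called between the gates. In the 3'UTRKO library 0 were called higher and 2 lower than in other papain NH cells. They were Ppib, an ER prolyl isomerase, at 71 against 219 and 226 FPKM (-1.63 ± 0.26), and Srp54a, of the signal recognition particle, at 2 against 17 and 13 FPKM (-2.40 ± 0.32). Its paralogs were not called, with Srp54b at 12 against 20 and 15 FPKM and Srp54c at 17 against 24 and 18 FPKM. How reads were divided among these copies was not tested.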

How the data were processed

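RNA of 15 libraries was poly(A)-selected and made into libraries with NEBNext kits from 10 ng, per the labels' protocols. Per the submitters' processing notes, TopHat 1.4.0, Cufflinks 1.3.0 and the mm9 genome were used. The authors deposited a whole-number score per gene and library, read from the values and the tool as rounded FPKM. Read depth is unknown, so no counting interval can be given, and precision rests on the spread between replicates. Columns were matched to samples by title. The 14257 of 21110 genes that reached 1 FPKM in 2 libraries were tested as log2(FPKM + 1), unscaled, in limma 3.58.1 (R 4.3.3), with 1 model over 8 groups (7 residual and 1.87 prior degrees of freedom), trended eBayes, two-sided p-values and a Benjamini-Hochberg threshold of 0.05. All 40 members passed the filter, and the tests were checked on simulated data. Differences with errors are given for 12 fixed members and for up to 10 called members per direction with the largest differences and a mean of 5 FPKM or more. For other pathway lists up to 3 called genes per direction are named. The members and lists were chosen with earlier results of these data known. Alternatives were the offset, the filter, median-ratio scaling, quantile normalization, the replicate number as a block, a fit of only the groups compared and leaving out each library. Promoter windows came from RefSeq, and figures were drawn with matplotlib 3.10.9.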

Additional observations from a re-analysis of the deposited data

Results flagged for a closer look

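The papain response of Creld2 differed between basophils and CD11c-negative eosinophils by 1.82 ± 0.37 on the log2(FPKM + 1) scale (adjusted p = 0.0423, limma), a test of the difference itself. Both papain basophil libraries (52 and 44 FPKM) were above both CD11c-negative libraries (11 and 14 FPKM), while the naive libraries were alike (10 and 6 FPKM in basophils, 8 and 7 FPKM in eosinophils). Among the 40 members and 3 such tests it was the single one that passed. The call was lost with the replicate block, under quantile normalization, with a minimum of 5 FPKM, in a fit of the 4 groups alone, and when any library of these groups other than naive basophil replicate 1 was left out.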

How the results depend on the processing

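No called value changed sign under any alternative. Among named values without a call, 120 combinations of member, comparison and alternative had another sign than the main fit, a change to or from 0 included. Of 37 called member results named with an error, 4 kept their call under every alternative: Ern1 in NH cells against both other naive types, and Creld2 and Dnajb9 in CD11c-positive eosinophils. Counts of members higher that moved by over 1.5 times were as follows. Basophils, 18: 11 with median-ratio scaling, 9 with quantile normalization, 0 in a fit of only the groups compared, and 2 to 25 with libraries left out; the lower count of 0 became 2 under both scalings. NH cells, 0: 2 in a fit of only the groups compared. CD11c-negative eosinophils, 1: 0 in that fit, and 0 to 1 with libraries left out. CD11c-positive eosinophils, 9: 4 in that fit and 3 to 5 with libraries left out; the lower count of 0 became 1 with the 5 FPKM filter and both scalings, and 0 to 1 with libraries left out. CD11c gates, lower 0: 0 to 1 with libraries left out. Naive basophils against eosinophils, 3: 5 with both scalings, 1 in the fit of only the groups compared, 0 to 2 with libraries left out; lower 1: 0 with quantile normalization and in that fit, 0 to 1 with libraries left out. Naive basophils against NH cells, 1: 2 with an offset of 5, 0 without a filter, 3 with the 5 FPKM filter, 5 and 4 with median-ratio scaling and quantile normalization, and 0 in all with libraries left out. Naive eosinophils against NH cells, 2: 4 with both scalings, 1 in the fit of only the groups compared, 1 to 2 with libraries left out; lower 5: 8 with quantile normalization, 1 in that fit, 1 to 4 with libraries left out. Response in basophils minus NH cells: higher 0 to 1 with libraries left out; lower 1 with both scalings, 0 to 1 with libraries left out. Response in basophils minus CD11c-negative eosinophils, 1: 0 with the 5 FPKM filter, quantile normalization and the fit of only the groups compared, 0 to 1 with libraries left out. A fit of only the groups compared has fewer samples; the cause of the other moves was not tested. Same-numbered replicates did not deviate together (correlations between -0.153 and 0.116, 20 of 21 under 0.1), so the numbers do not pair the libraries. With the replicate number as a block the basophil count was 15, the CD11c-positive count 6, the naive basophil count against NH cells 0 and the Creld2 response count 0. With 2 libraries per group and unknown depth, a member without a call is not shown to be unaltered.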

Other observations

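The other genes of these pathways were also compared between naive cell types. The shares called were near those of all genes, and the gap was not tested. Of 139 tested, 6 were higher (4.32%) and 11 lower (7.91%) in naive basophils than in naive eosinophils, against 5.3% and 8.66% of all genes. Against naive NH cells 8 were higher (5.76%) and 13 lower (9.35%) in naive basophils, with 6.96% and 13.6% of all genes, and 12 were higher (8.63%) and 19 lower (13.7%) in naive eosinophils, with 11.6% and 16.5% of all genes. Slc7a11, the cystine transporter and ATF4 target, was at 109 and 150 FPKM in naive eosinophils, 7 and 5 FPKM in basophils and 3 and 1 FPKM in NH cells (5.51 ± 0.41 between eosinophils and NH cells, adjusted p = 3.32e-05, limma). Os9 was at 180 and 196 FPKM in naive basophils, 30 and 25 FPKM in eosinophils and 26 and 27 FPKM in NH cells (2.78 ± 0.17 between basophils and NH cells, adjusted p = 2.36e-05, limma). Creb3l2, an ER-anchored transcription factor of the ATF6 kind, was listed at 0 in both naive eosinophil libraries and was at 7 and 8 FPKM in basophils and 9 and 11 FPKM in NH cells. Tusc3, of the oligosaccharyltransferase, was at 57 and 56 FPKM in NH cells and 1 and 5 FPKM in eosinophils (-4.05 ± 1.09, adjusted p = 0.0227, limma).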
